A study of Arabidopsis thaliana with 4 samples.

Results

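The plastid genome of Arabidopsis thaliana carries genes for some of the proteins of its own large ribosomal subunit, and 7 of these, rpl14, rpl16, rpl20, rpl22, rpl32, rpl33 and rpl36, are described here. They were taken as every probe set whose annotation names exactly 1 of these symbols and whose gene lies on the plastid chromosome of the TAIR10.1 gene table. Each gene had 1 such probe set, so there were 7 probe sets out of 22810 on the array, and all 7 were bright enough to be tested. Mitochondrial genes share symbols such as rpl2 and rpl16, but 0 probe sets named 1 mitochondrion-encoded ribosomal protein gene alone, so none entered the set. rpl2 and rpl23, which lie in the inverted repeat of the plastid genome, had no probe set naming either gene alone, and they were not analysed here.

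Signals came from 4 single-colour Affymetrix arrays of whole seedlings in the Col-0 accession, 2 of wild type and 2 of plants titled as overexpressing At1g54160, with no treatment in either group. This locus encodes NFYA5, a subunit of the nuclear factor Y complex, which recognises CCAAT motifs in nuclear promoters. The seedlings were 2 weeks old and had grown on agar with 3% sucrose at 22 °C, in days of 16 h light and 8 h darkness. An nfya5 mutant is named in the series design text for the second group, whereas its titles name overexpression. The titles are followed here, and a direction such as "higher in the overexpressor arrays" rests on them. The promoter of the transgene and the number of lines are not given in the sources used here, and NFYA5 itself could not be checked, because the annotation used lists no probe set for it. Whether the replicates were separate cultures is not stated, and p-values here reflect the spread of these 4 arrays, part of which may be technical.

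Plastids make proteins on a bacterial-type ribosome whose parts come from both genomes of the cell. A few ribosomal proteins are encoded in the plastid, while the others are encoded in the nucleus and imported. This ribosome translates the plastid-encoded core subunits of the photosystems, the cytochrome b6f complex, the ATP synthase and the large subunit of Rubisco. In green tissue most plastid genes are transcribed as clusters by the plastid-encoded RNA polymerase together with a nuclear-encoded, phage-type polymerase, and processing and stability of the RNA set much of the final transcript level. Of the 7 genes, rpl22, rpl16, rpl14 and rpl36 belong to the large ribosomal protein cluster that descends from bacterial ribosomal operons. rpl33 is transcribed with its neighbours psaJ and rps18, rpl20 lies next to rps18 on the opposite strand, and rpl32 stands apart from the other ribosomal protein genes.

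All 7 genes had a higher mean log2 signal in the overexpressor arrays than in wild type. So did 56 of the 58 other tested plastid-encoded genes and 53.2% of all tested probe sets. The 7 genes ran from 1.10-fold for rpl32 to 1.95-fold for rpl20 on the scale of signal + 50 that was used for the test. rpl20 and rpl33 passed the test over all probe sets (limma's moderated test, adjusted p under 0.05), and the other 5 genes did not. Thus 2 of 7 were called higher, where 0.530% of the 13961 tested probe sets were called higher. In 5 of the 7 genes both overexpressor arrays lay above both wild type arrays, which was so for 26.1% of all tested probe sets and for 29 of the 58 other tested plastid-encoded genes. The median log2 fold change of the 7 genes was 0.55, beside 0.02 over all tested probe sets and 0.35 over the other plastid-encoded genes. It was 0.28 without wild type replicate 1, on which all 7 genes had their lowest signal, and 0.80 without wild type replicate 2. These are whole seedlings, in which less RNA per cell and fewer cells of a type cannot in general be told apart. Of 5 listed nuclear green tissue markers 3 were tested, RCA, LHCB4.1 and LHCB4.2, with log2 fold changes between -0.06 and 0.01. Their mean on wild type replicate 1 was -0.03 relative to their 4-array means, where the 7 genes were at -0.57. Whether the share of green tissue differed between the arrays was not tested.

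**Figure D1:**
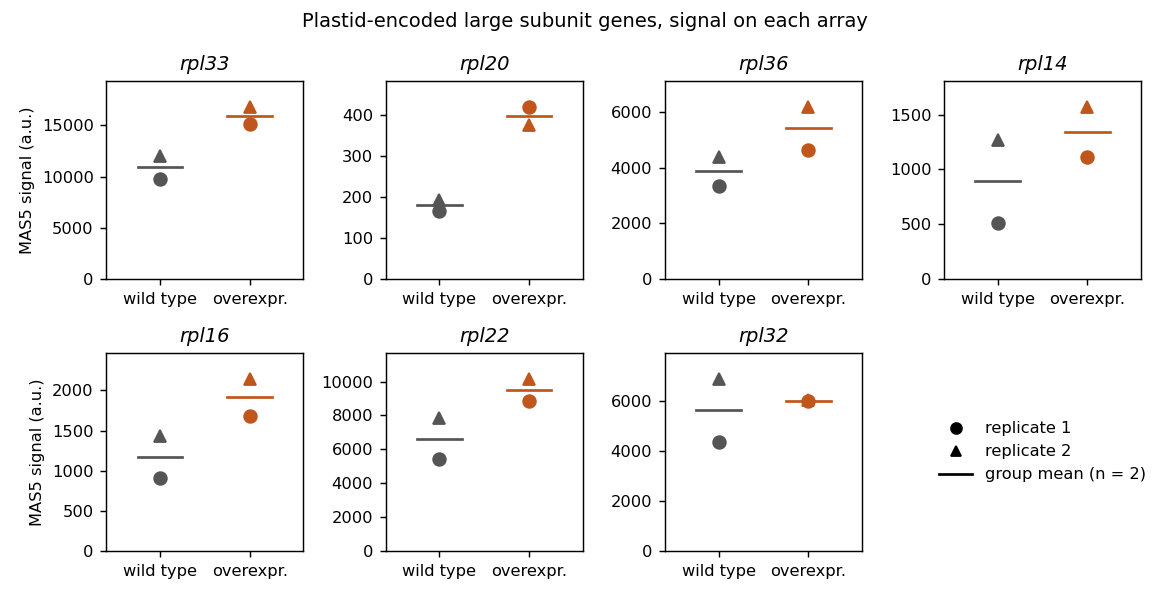
MAS5 signal in arbitrary units (vertical axes from 0, 1 panel per gene) on the 2 wild type and 2 overexpressor arrays; circles are replicate 1, triangles replicate 2 and bars group means (n = 2). The groups are apart in 5 panels and overlap for rpl14 and rpl32, and wild type replicate 1 is the lowest array in every panel.

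rpl20 encodes a protein that binds the large ribosomal RNA early in subunit assembly and is essential in tobacco. Its signals were 165.7 and 193.3 in wild type and 419.2 and 376.2 in the overexpressor arrays. The arrays within each group lay close together and the groups were far apart, with a gap of 0.81 log2 units between the highest wild type and the lowest overexpressor array. The log2 fold change was 0.96 ± 0.14 (SE, limma, adjusted p = 0.012). rpl20 was the dimmest of the set, and the ratio of its plain mean signals, 397.7 ± 30.4 against 179.5 ± 19.5 (SD, n = 2), was 2.22. It stood second in fold change among the 65 tested plastid-encoded genes, and it alone of the 7 passed when wild type replicate 1 was left out (log2 fold change 0.88, adjusted p = 0.029). At the same fold change the call was lost with a constant variance prior (adjusted p = 0.058) and with no filter on low signals (adjusted p = 0.18).

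rpl33 encodes a small protein of the large subunit that tobacco can lose under normal growth but needs to recover from cold. Its signals were 9767 and 12062 in wild type and 15114 and 16813 in the overexpressor arrays. The groups did not overlap, although the wild type arrays differed from each other by 0.30 log2 units. The log2 fold change was 0.55 ± 0.11 (SE, limma, adjusted p = 0.044). Without wild type replicate 1 it was 0.40 and no longer passed (adjusted p = 0.14). The call was also lost with a constant variance prior (adjusted p = 0.165) and with no filter on low signals (adjusted p = 0.255).

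The 4 genes of the ribosomal protein cluster had log2 fold changes from 0.48 to 0.71, of which 0 passed in limma's test after adjustment. All 4 had an unadjusted p under 0.05, as did many plastid-encoded genes outside the cluster and 16.5% of all tested probe sets. rpl16 encodes a protein near the site where transfer RNAs are accommodated. It was at 905.5 and 1429 in wild type and at 1678 and 2148 in the overexpressor arrays. Its groups did not overlap, and it had the largest log2 fold change of the cluster, 0.71 ± 0.18 (SE, limma, adjusted p = 0.085). Without wild type replicate 1 this was 0.40 (adjusted p = 0.19), and rpl16 passed without any 1 of the other 3 arrays, at values from 0.54 to 1.03.

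rpl22 encodes a protein that lines the exit tunnel for the new polypeptide and is essential in tobacco. Its signals were 5406 and 7840 in wild type and 8826 and 10173 in the overexpressor arrays. The groups were apart by 0.17 log2 units at their nearest arrays, less than the 0.53 between the wild type arrays. The log2 fold change was 0.54 ± 0.15 (SE, limma, adjusted p = 0.10). Leaving out wild type replicate 1 gave 0.27 (adjusted p = 0.31), and rpl22 passed without wild type replicate 2, at 0.80, and without overexpressor replicate 1, at 0.64. Over the 4 arrays rpl22 followed the mean profile of the 7 genes most closely, with a root mean square difference of 0.023 log2 units.

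rpl36 encodes the smallest protein of the subunit, whose loss tobacco survives with strongly impaired growth. Its signals were 3343 and 4395 in wild type and 4634 and 6178 in the overexpressor arrays. The groups were barely apart, by 0.08 log2 units, while the arrays differed by 0.39 within wild type and by 0.41 within the overexpressor group. The log2 fold change was 0.48 ± 0.15 (SE, limma, adjusted p = 0.15). Leaving out wild type replicate 1 gave 0.28, and leaving out overexpressor replicate 2 gave 0.27. rpl36 passed without wild type replicate 2, at 0.67, and without overexpressor replicate 1, at 0.68.

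rpl14 encodes a protein at the face that meets the small subunit. It was at 508.5 and 1273 in wild type and at 1110 and 1571 in the overexpressor arrays. Wild type replicate 2 lay above overexpressor replicate 1, so the groups overlapped, and the wild type arrays differed by 1.24 log2 units, more than the groups did. The log2 fold change was 0.67 ± 0.30 (SE, limma, adjusted p = 0.30), and it was 0.05 without wild type replicate 1 and 0.43 without overexpressor replicate 2. rpl14 passed without wild type replicate 2, at 1.30, and without overexpressor replicate 1, at 0.91.

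rpl32 encodes another small protein of the subunit and is essential in tobacco. Its signals were 4338 and 6882 in wild type and 5968 and 6019 in the overexpressor arrays. Both overexpressor arrays lay between the wild type arrays. The log2 fold change was 0.13 ± 0.17 (SE, limma, adjusted p = 0.74), with a 95% confidence interval from -0.23 to 0.50, and it turned to -0.20 without wild type replicate 1. Without wild type replicate 2 it was 0.46 and passed (adjusted p = 0.038).

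**Figure D2:**
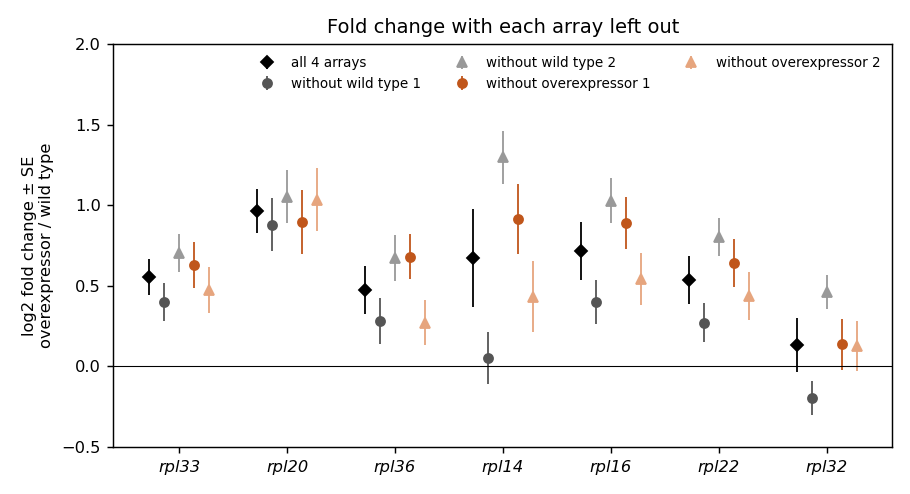
Log2 fold change between overexpressor and wild type arrays on the log2(signal + 50) scale (vertical axis) for each gene (horizontal axis), with all 4 arrays and with each array left out in turn; bars are limma's standard errors. rpl20 keeps values from 0.88 to 1.05, rpl14 ranges from 0.05 to 1.30, and rpl32 is below 0 without wild type replicate 1.

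The wild type arrays differed from each other in the plastid-encoded genes as a whole. With every gene centred on its own 4-array mean, the 7 genes averaged -0.57 and -0.01 log2 units on wild type replicates 1 and 2, and 0.18 and 0.39 on overexpressor replicates 1 and 2. The other 58 plastid-encoded genes had -0.43, 0.06, 0.14 and 0.23 on the same arrays. The gap between the wild type arrays was thus 0.56 for the 7 genes and 0.49 for the others, beside mean differences between the groups of 0.58 and 0.37. Wild type replicate 1 was the lowest array for 7 of the 7 genes, for 52 of the 58 others and for 30.4% of all tested probe sets. The gap between the wild type arrays exceeded the group difference in 2 of the 7 genes, rpl14 and rpl32, and in 42 of the 58 others. This was so for 50.9% of all tested probe sets. The value of each of the 7 genes without wild type replicate 1 stands with that gene above. No label gives a batch that would set that array apart.

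**Figure D3:**
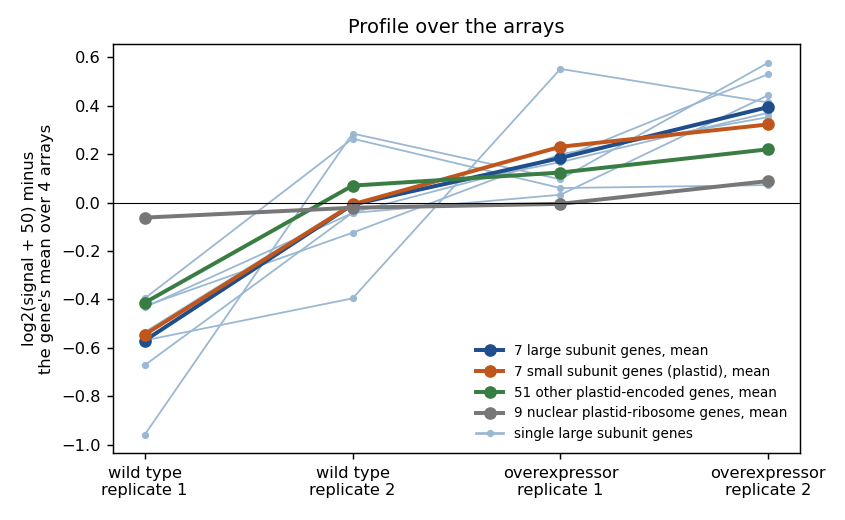
Log2(signal + 50) minus each gene's mean over the 4 arrays (vertical axis) on each array (horizontal axis), with thin lines for the 7 single genes and thick lines for means of gene sets; lines join the values of 1 gene or set, and replicates have no order. The 3 plastid-encoded sets are lowest on wild type replicate 1, while the nuclear genes of the plastid ribosome stay between -0.06 and 0.09.

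With the mean of the other plastid-encoded genes subtracted on each array, the 7 genes together lay at -0.14 and -0.07 in wild type and at 0.05 and 0.16 in the overexpressor arrays, centred on 0. The difference between the groups was 0.21 log2 units, and an exact two-sided permutation test over the 4 arrays gave p = 0.333, the smallest that 2 against 2 arrays allow. Subtracting the same mean from each gene left a log2 difference of 0.60 for rpl20, 0.34 for rpl16, 0.30 for rpl14, 0.18 for rpl33, 0.17 for rpl22, 0.11 for rpl36 and -0.24 for rpl32. For rpl20 the values on the single arrays were -0.14 and -0.46 in wild type and 0.42 and 0.18 in the overexpressor arrays, so that this gene was apart between the groups on this scale too. For rpl32 they were 0.03 and 0.20 against -0.08 and -0.16, apart in the opposite direction. These single-gene differences were not tested.

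Position along the plastid genome was compared because neighbouring genes are often transcribed together. rpl33 and rpl20, the genes that passed, had the group difference in common with psaJ, the photosystem I gene next to rpl33, which was called higher (log2 fold change 0.72 ± 0.14, SE, limma, adjusted p = 0.039). Before psaJ in gene order come petG (1.68 ± 0.28, adjusted p = 0.022) and, next to it, petL (0.76 ± 0.13, adjusted p = 0.022). With psaJ these were the 3 of the 58 other plastid-encoded genes called higher, where 0.530% of all tested probe sets were. The wild type arrays differed by 1.16 log2 units for petG, 0.35 for petL and 0.52 for psaJ, with replicate 1 the lower. In each of the 3 both overexpressor arrays lay above both wild type arrays. rpl20 lies on the opposite strand to rps18, and whether it shares a transcript with any of these genes was not tested. rps18, which lies between rpl33 and rpl20, had 0.54 ± 0.14 (adjusted p = 0.086). On the far side of rpl20 the next gene is rps12, which no probe set names alone. The tested gene after rps12, clpP, had 0.10 ± 0.10 (adjusted p = 0.67).

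In the ribosomal protein cluster the tested neighbours were rps3, between rpl22 and rpl16, at a log2 difference of 0.37 ± 0.13 (limma, adjusted p = 0.20), and rps19, beside rpl22, with 0.45 ± 0.15 (adjusted p = 0.17). Of the genes beside rpl32, ccsA, needed to attach haem to c-type cytochromes, had 0.08 ± 0.09 (adjusted p = 0.69) and ndhF was below the minimum signal.

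The mean of rpl20 and rpl33 minus that of the 4 cluster genes was, centred on 0, 0.15 and -0.31 in wild type and 0.26 and -0.10 in the overexpressor arrays. These values overlapped between the groups, and the difference of 0.16 log2 units had an exact two-sided permutation p of 0.667. It was -0.07 without wild type replicate 2, -0.02 without overexpressor replicate 1, 0.39 without wild type replicate 1 and 0.34 without overexpressor replicate 2. A difference in response between these loci was therefore not shown, although rpl20 and rpl33 passed and the cluster genes did not. The cluster genes were spread more widely within the groups, with a mean gap of 0.70 log2 units between the wild type arrays against 0.24 for rpl20 and rpl33.

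**Figure D4:**
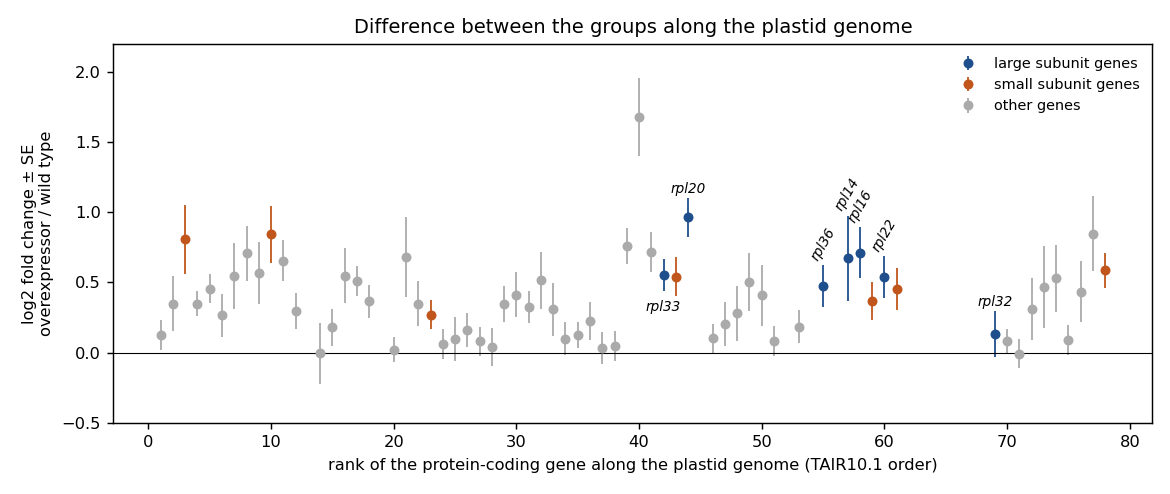
Log2 fold change between overexpressor and wild type arrays with limma's standard error (vertical axis) for each tested plastid-encoded gene in its order along the genome (horizontal axis, rank of the gene). The 7 large subunit genes (blue) lie between 0.13 and 0.96 among plastid-encoded genes that are mostly above 0, of which petG is the highest at 1.68.

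The small subunit genes of the plastid genome had a similar range. Of the 12 listed, 7 were tested, and all 7 had positive log2 fold changes, from 0.27 to 0.84. Of the 51 tested plastid-encoded genes that encode no ribosomal protein, 49 had positive values. All 7 small subunit genes had groups that did not overlap, beside 22 of those 51 and 26.1% of all tested probe sets. The gap between the wild type arrays exceeded the group difference in 5 of the 7 small subunit genes, against 2 of the 7 large subunit genes. limma called 0 of the small subunit genes after adjustment, where 0.530% of all tested probe sets were called higher. All 7 had an unadjusted p under 0.05, as did many other plastid-encoded genes and 16.5% of all tested probe sets. Their median of 0.54 was close to that of the large subunit genes, 0.55, and the 51 plastid-encoded genes that encode no ribosomal protein had a median of 0.31. The smallest p-values were those of rps15, with 0.59 ± 0.13 (SE, adjusted p = 0.052), and of rps2, with 0.84 ± 0.21 (adjusted p = 0.077). Of the 4 genes of the plastid-encoded RNA polymerase, 3 were tested and limma called 0 of them, 2 having an unadjusted p under 0.05. These were rpoC2, at a log2 difference of 0.66 ± 0.15 (adjusted p = 0.060), and rpoC1, at 0.30 ± 0.13 (adjusted p = 0.29).

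The nuclear genes for partner proteins of the same ribosome had smaller median differences. Of 26 listed nuclear genes of the large subunit 6 were tested, 5 of them with positive log2 fold changes. The values ran from -0.04 to 0.26 with a median of 0.13. limma called 0 of the 6, where 0.530% of all tested probe sets were called higher. An unadjusted p under 0.05 was found for 2 of the 6, beside 16.5% of all tested probe sets. These were AT5G47190, at 0.26 ± 0.10 (adjusted p = 0.21), and AT4G01310, at 0.19 ± 0.08 (adjusted p = 0.30). Of 14 listed nuclear genes of the small subunit 3 were tested, with log2 fold changes from 0.02 to 0.03, and limma called 0 of them, with or without adjustment. AT1G64510 had 0.03 ± 0.09 (adjusted p = 0.90) and AT5G24490 had 0.03 ± 0.10 (adjusted p = 0.92). The 9 nuclear genes together differed by 0.04 log2 units between the wild type arrays, where the 7 plastid genes differed by 0.56. In 4 of the 9 both overexpressor arrays lay above both wild type arrays, beside 26.1% of all tested probe sets. The listed mitochondrion-encoded ribosomal protein genes had 0 probe sets naming 1 gene alone.

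Markers of the tissues in a seedling were read beside these values. Of the green tissue markers, RCA, LHCB4.1 and LHCB4.2, nuclear genes of photosynthesis, had log2 fold changes of -0.06 ± 0.09, 0.01 ± 0.09 and -0.04 ± 0.09. Relative to their means they were together at -0.03 and 0.06 on the wild type arrays and at -0.08 and 0.05 on the overexpressor arrays. Of the root markers, PYK10, EXPA7 and EXPA18 had 0.11 ± 0.09, 0.11 ± 0.15 and -0.37 ± 0.17. Tested were 3 of the 5 listed green tissue markers and 3 of the 4 listed root markers. Of these tested markers 0 passed in limma's test or had an unadjusted p under 0.05, beside 16.5% of all tested probe sets for the latter.

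The genes whose profile over the 4 arrays was nearest to the mean profile of the 7 genes, among 7489 tested probe sets naming another gene, were AT2G07170, AT5G06265, AT1G34570, ATL4H, AT1G62150 and psbN. Their root mean square differences from it lay between 0.032 log2 units for AT2G07170 and 0.073 for psbN, the plastid-encoded gene among them. AT2G07170 was at 77.4 and 144.4 in wild type and at 173.9 and 195.7 in the overexpressor arrays. psbN was at 84.2 and 139.8 in wild type and at 148.7 and 208.2 in the overexpressor arrays. The other 5 are nuclear genes. Signals of the 6 genes lay between 54.9 and 385.8, where the median signal per array was 180.9 to 193.6. A likeness over 4 arrays, searched among this many probe sets, is a weak criterion. Over whole sets the median difference from the profile was 0.14 for the small subunit genes of the plastid, 0.21 for the other plastid-encoded genes without ribosomal proteins, 0.31 for the nuclear genes of the plastid ribosome and 0.36 for all tested probe sets. The 7 genes themselves, which made the profile, ranged from 0.023 for rpl22 to 0.267 for rpl20, with rpl14 at 0.264 and rpl32 at 0.237.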

How the data were processed

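The deposited file holds linear array intensities, which are MAS5 signals per the submitters' processing notes, and per the labels the authors scaled each array to a target of 500. The MAS5 version and the primer used for labelling are not given in the sources used here. How labelling affects the signals of plastid transcripts was not tested, so the plastid fold changes are differences in signal. Global scaling hides a change shared by most transcripts, and signals of different probe sets are not compared as levels. The median signal per array was 180.9 to 193.6, and log2 signals correlated at 0.989 and 0.988 within the groups and at 0.979 to 0.985 across them.

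Probe sets were named by the platform annotation and the TAIR10.1 gene table, in which 13436 of 13513 probe sets naming 1 gene matched. Plastid genes were recognised by chromosome, since the table's plastid locus tags differ from those planned. Gene order alone is used from the table, because the build behind the annotation is not given in the sources used here. Groups and replicate numbers came from the sample titles. After adding 50, log2 signals of the 13961 non-control probe sets with a mean of at least 100 were fitted with limma 3.58.1 in R 4.3.3 (group term, eBayes with intensity trend, two-sided, Benjamini-Hochberg over all tested probe sets, threshold 0.05). Fold changes are on that scale, which understates dim probe sets. Alternatives were other pseudocounts, filters, normalizations and variance priors, a replicate block, and each array left out. The text names the 7 genes, their nearest neighbours (some are not reported here), the members of each list that passed or up to 2 with the smallest p, the tissue markers, and the 6 nearest profiles. clpP, petG and petL were picked with their values in view. The 7 genes and all lists were chosen with earlier results of these data known. No nucleotide or protein sequence was used here.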

Additional observations from a re-analysis of the deposited data

How the results depend on the processing

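The 7 fold changes were above 0 in 97 of 98 combinations of gene and alternative, the exception being rpl32 without wild type replicate 1 (-0.20), which had 0.46 without wild type replicate 2. rpl20 and rpl33 were the genes called under other pseudocounts, a minimum signal of 250, quantile normalization, centring on the median and a robust variance prior. With no filter on low signals 0 of the 7 and 1 probe set in all passed, and with a constant variance prior 0 of the 7 and 9 in all, in limma's test, against 2 and 180. In the main test 6 of the 7 had an unadjusted p under 0.05, beside 16.5% of all tested probe sets. Many of the other 58 plastid-encoded genes had one too. With the replicate number as a block 6 of the 7 and 1075 probe sets passed. Same-numbered arrays deviated together only weakly over all tested probe sets (r = 0.056 over 13961), so the numbers are not taken as pairs. That r does not settle the question for plastid-encoded genes. For the 7 genes replicate 2 averaged 0.56 log2 units above replicate 1 among wild type arrays and 0.21 among overexpressor arrays. rpl20 went the other way in the overexpressor group (-0.14). The other 58 plastid-encoded genes averaged 0.49 and 0.10. With 1 array left out, 1 to 7 of the 7 genes passed (1 without wild type replicate 1, 7 without wild type replicate 2, 6 without overexpressor replicate 1, 3 without overexpressor replicate 2), and 101 to 489 probe sets in all. There the lone array is assumed to vary like the other group. Their median log2 fold change ranged from 0.28 to 0.80, and their difference from other plastid-encoded genes from 0.15 to 0.27. Precision is limited by having 2 arrays a group.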
